A study of Mus musculus with 6 samples.

Results

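The comparison set Foxo4 knockout (Foxo4_KO) colonic mucosa against wild-type (WT) colonic mucosa 2 days after a 50% ethanol enema. It was chosen from the treatment and genotype labels and holds 2 of the 6 samples of the series. Each sample was 1 Illumina mouse bead array hybridised with RNA pooled from 5 mice. The Foxo4_KO ethanol pool came from FVB/N6 mice labelled as Foxo4 knockouts, 8 weeks old. The WT ethanol pool came from FVB/N6 wild-type mice of the same age. The remaining 4 pools, also of 5 mice aged 8 weeks, were untreated Foxo4_KO and WT mucosa, and Foxo4_KO and WT mucosa taken 2 days after an enema of trinitrobenzenesulfonic acid (TNBS, labelled 250 mg) in 50% ethanol. The labels give neither the sex of the mice nor how, or in which cells, Foxo4 was deleted. A gene entered the comparison when it was detected (detection score of at least 0.99) on at least 1 of the 2 ethanol arrays, which 7998 of the 8948 genes detected anywhere in the series were. Levels are normalized log2 signals, and a difference is the Foxo4_KO ethanol pool minus the WT ethanol pool on that scale. With 1 array a side no test is possible, so a difference of at least 2-fold (1 on the log2 scale) is a size and not a call of significance.

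Ethanol is the vehicle in which TNBS is given to provoke colitis, and alone it injures the surface epithelium of the colon, which then repairs itself. FoxO4 is a forkhead transcription factor that leaves the nucleus when insulin or growth factor signalling is active, and in smooth muscle FoxO proteins are known to restrain the myocardin programme of contractile genes. Interferons act through STAT and IRF factors on a common set of antiviral and antigen-presentation genes, many of which carry an interferon-stimulated response element near their start. The distal colonic epithelium absorbs sodium through the epithelial sodium channel, which aldosterone controls.

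Mean raw signal was 227.3 on the Foxo4_KO ethanol array and 225.3 on the WT ethanol array. On the Foxo4_KO ethanol array 12868 probes were detected and on the WT ethanol array 11886, within the range of 11181 to 14363 over the 6 arrays. Over the 7998 genes the ethanol pools correlated at 0.984 (Pearson, across genes), and 692 genes were detected in the Foxo4_KO ethanol pool alone, against 169 in the WT ethanol pool alone. Foxo4 has 1 probe, which was not above background in either pool, with normalized log2 signals of 6.52 in Foxo4_KO and 6.51 in WT, so the arrays do not check the genotype labels. Xist, the RNA of the inactive X chromosome of females, was not above background in the Foxo4_KO (6.62) or the WT (6.63) ethanol pool, whereas it stood at 10.25 in the untreated Foxo4_KO pool and 9.68 in the untreated WT pool. The TNBS pools stood at 7.24 in Foxo4_KO and 6.61 in WT. The untreated pools therefore differ from the ethanol pools in Xist as well as in treatment, and the TNBS pools differ from each other in Xist. The part of sex in differences between treatments, or within the TNBS pair, was not tested. The Foxo4_KO TNBS pool stood apart from the other 5, with correlations of 0.958 to 0.978 against at least 0.980 among them. Signals of epithelial markers ranged widely in both ethanol pools. Lgals4 was at 13.33 in Foxo4_KO and 13.42 in WT, and Vil1 at 11.93 in Foxo4_KO and 11.79 in WT. Epcam was at 7.0 in Foxo4_KO and 7.2 in WT, and Krt20, Cdh17 and Fabp2 were not detected.

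Most genes lay close to equality. The middle 50% of differences ran from −0.12 to 0.08, the lowest 1% lay under −0.65 and the highest 1% above 1.10. In the Foxo4_KO ethanol pool the signal of 96 genes (1.20% of those compared) was higher by 2-fold or more and that of 27 (0.338%) lower by as much. The untreated pair had 40 such genes higher (0.495%) and 17 lower (0.211%), and the TNBS pair 106 higher (1.23%) and 49 lower (0.567%). Of the 96 higher genes 54 belonged to a gene list used here, chiefly interferon response, contractile smooth muscle, stroma and matrix, and leukocytes. Of the 27 lower genes 10 did, most of them genes of sodium transport or of antimicrobial defence. A gene near background can enter only through the pool in which it is higher, so counts of signs among detected list members are descriptions. In bulk tissue, fewer cells of a type and less RNA per cell cannot be told apart.

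**Figure D1:**
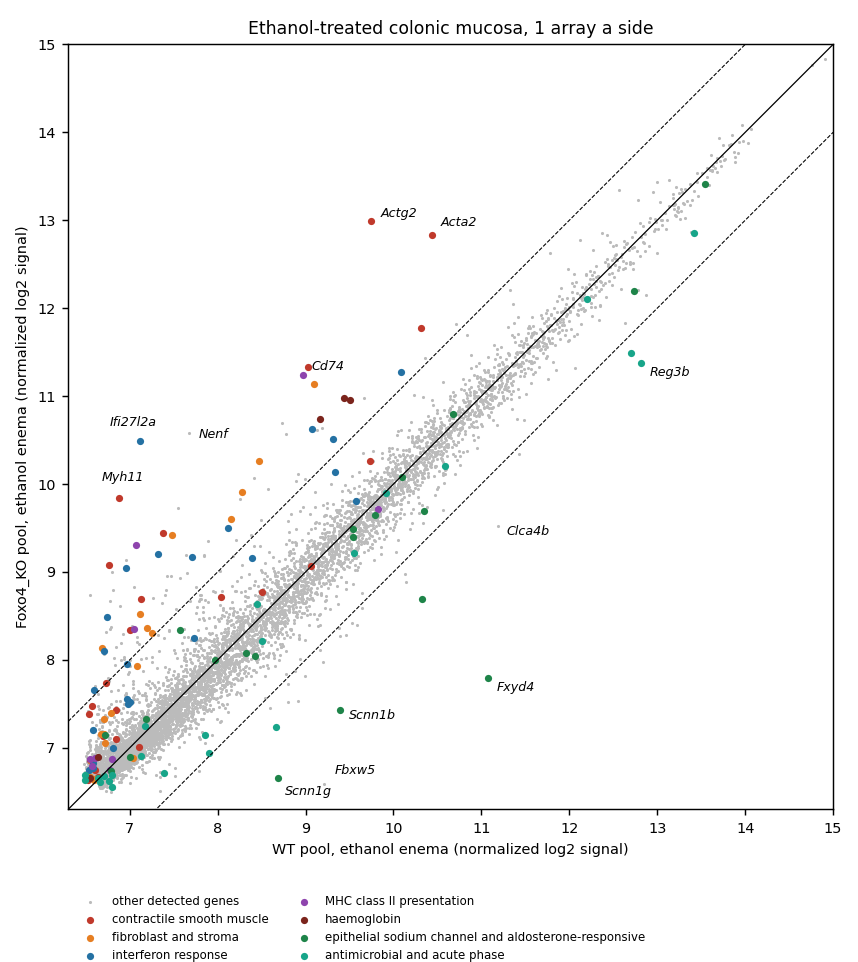
Normalized log2 signal of the 7998 detected genes in the Foxo4_KO ethanol pool (vertical axis) and the WT ethanol pool (horizontal axis), 1 point a gene, with 7 gene lists in colour, a solid line at equality and dashed lines at a difference of 1. Ifi27l2a, Actg2, Myh11 and Nenf lie farthest above the line of equality among the labelled genes, and Fxyd4, Fbxw5, Scnn1g and Scnn1b farthest below it.

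Interferon response genes were higher in the Foxo4_KO ethanol pool. Of 33 list members on the array 25 were detected, 11 were at least 2-fold higher, against 1.20% of all genes compared, and none at least 2-fold lower. The median member was higher by 0.80, against −0.02 over all genes compared. Without any detection filter the median of the 33 was 0.52, and −0.00 over all genes on the array. The 8 members not detected in either pool were Ifit1, Oas3, Mx1, Ifih1, Xaf1, Rtp4, Zbp1 and Trim30a. Summed over the 25 detected members, linear normalized signal was 14613 in the Foxo4_KO ethanol pool and 6519 in the WT ethanol pool.

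Promoter sequences are shown for Rsad2 and Apol9a, which had the highest differences among interferon genes whose promoter holds the response element, and for the neighbouring GTPase genes Irgm2 and Igtp. They run from 250 bases before the start to 50 bases after it, 5′ to 3′ on the gene's strand, from RefSeq on GRCm38.p6, the C57BL/6J reference and not FVB/N6. Capitals mark matches to the interferon-stimulated response element core, searched as GAAA, any 2 bases and GAAA again, on either strand.
Rsad2, chr12:26456403-26456702, minus strand: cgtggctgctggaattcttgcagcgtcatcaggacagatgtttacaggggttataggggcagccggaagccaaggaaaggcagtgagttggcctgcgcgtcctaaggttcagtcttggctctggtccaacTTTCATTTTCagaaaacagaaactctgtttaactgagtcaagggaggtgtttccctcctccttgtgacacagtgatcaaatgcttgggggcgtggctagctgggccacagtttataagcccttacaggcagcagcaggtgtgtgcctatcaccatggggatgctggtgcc
Apol9a, chr15:77411031-77411330, minus strand: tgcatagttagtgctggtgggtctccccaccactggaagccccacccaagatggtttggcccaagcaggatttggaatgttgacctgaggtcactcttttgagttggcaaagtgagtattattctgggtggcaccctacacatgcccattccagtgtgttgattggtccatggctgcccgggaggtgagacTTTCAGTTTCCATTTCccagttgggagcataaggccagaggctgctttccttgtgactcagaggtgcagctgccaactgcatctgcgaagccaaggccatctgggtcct
Irgm2, chr11:58214727-58215026, plus strand: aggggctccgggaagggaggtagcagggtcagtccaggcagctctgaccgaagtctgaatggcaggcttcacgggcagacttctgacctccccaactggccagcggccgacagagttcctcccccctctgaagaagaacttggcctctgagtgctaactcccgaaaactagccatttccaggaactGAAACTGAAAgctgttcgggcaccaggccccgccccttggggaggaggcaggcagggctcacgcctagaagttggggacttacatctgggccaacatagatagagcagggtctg
Igtp, chr11:58199306-58199605, plus strand: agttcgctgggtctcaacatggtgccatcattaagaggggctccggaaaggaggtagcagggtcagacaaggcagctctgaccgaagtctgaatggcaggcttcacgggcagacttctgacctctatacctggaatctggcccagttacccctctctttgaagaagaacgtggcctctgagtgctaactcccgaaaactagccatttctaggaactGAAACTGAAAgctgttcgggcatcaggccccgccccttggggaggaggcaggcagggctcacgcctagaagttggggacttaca
Apol9a holds 2 overlapping matches, at 59 and 53 bases before the first of its 2 listed starts, Rsad2 holds 1 at 120, Irgm2 1 at 64 and Igtp 1 at 34. The Irgm2 and Igtp promoters share an identical run of 61 bases. Rsad2 also holds 1 match to the FoxO core, GTAAACA, at 212 bases before its start, in lower case here and not overlapping the other match.

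Searched on both strands, the response element core was present in the promoters of 7 of the 13 matched genes at least 2-fold higher from the lists of interferon response, interferon-inducible GTPases and MHC class I (53.8%), which were Apol9a, Apol9b, Ifitm3, Igtp, Irgm2, Oas1g and Rsad2. It was present in 9 of the 74 higher genes with a listed promoter (12.2%), in 0 of the 23 lower genes, in 3.5% of the genes compared and in 4.0% of all genes in the table. The FoxO core was present in 7 of the 74 higher genes (9.5%: Axl, Col6a1, Cpn1, Dlk1, Ifitm1, Mrvi1 and Rsad2), in 1 of the 23 lower genes (Insl5, 4.3%), in 3.4% of the genes compared and in 4.1% of all genes. The CArG box, bound by serum response factor at contractile genes, was found in Acta1, Asb2 and Fermt2 and in 0 of the 8 matched higher genes of the smooth muscle list, against 1.8% of all genes. The CCAAT box, a common promoter element, was found in 37.8% of the higher and 34.8% of the lower genes, against 41.1% of all genes. These matches describe the letters in a window of 300 bases and not binding.

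Ifi27l2a, a mitochondrial protein strongly induced by interferon, had 10.48 in the Foxo4_KO ethanol pool and 7.12 in the WT ethanol pool (raw signals 1445.3 in Foxo4_KO and 185.6 in WT), a difference of 3.37 and the largest upward one of the 7998. It was also far apart in the untreated pair, at 10.62 in Foxo4_KO and 6.90 in WT, but not in the TNBS pair, at 8.61 in Foxo4_KO and 8.26 in WT. Its Foxo4_KO level was thus lower and its WT level higher in the TNBS pools than in the ethanol pools. Apol9a, an interferon-inducible apolipoprotein, had 9.05 in the Foxo4_KO ethanol pool and 6.95 in the WT ethanol pool (difference 2.09). Rsad2, the antiviral enzyme viperin, had 9.21 in Foxo4_KO and 7.33 in WT (1.88). Ifit2, which binds viral RNA and limits its translation, had 8.49 in Foxo4_KO and 6.74 in WT (1.75). For Apol9a, Rsad2 and Ifit2 the 3 WT pools lay within a narrow band (6.91 to 6.96, 7.24 to 7.43 and 6.72 to 6.85), and every Foxo4_KO pool lay above it.

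The remaining interferon genes at least 2-fold higher were Ifitm3, a membrane protein that blocks viral entry (1.55), the 2′-5′ oligoadenylate synthetase family members Oasl1 (1.46), Oas2 (1.39) and Oas1g (1.21), the transcription factor Irf7 (1.37), the secreted Lgals3bp (1.20) and Apol9b (1.07). Apol9b was not above background in the WT ethanol pool, so its ratio was at least 2.10-fold. Oas1g and Irf7 were 2-fold higher in the untreated and ethanol pairs but not in the TNBS pair, where Irf7 was 8.27 in both pools and Oas1g 9.39 in Foxo4_KO and 9.49 in WT. Of the 25 detected members, 21 had all 3 Foxo4_KO pools above all 3 WT pools, an order that 6.00% of the genes compared had. Apol9a and Apol9b, and Oas1g and its relatives, are similar in sequence, and hybridisation of one gene's RNA to another's probe was not tested.

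**Figure D2:**
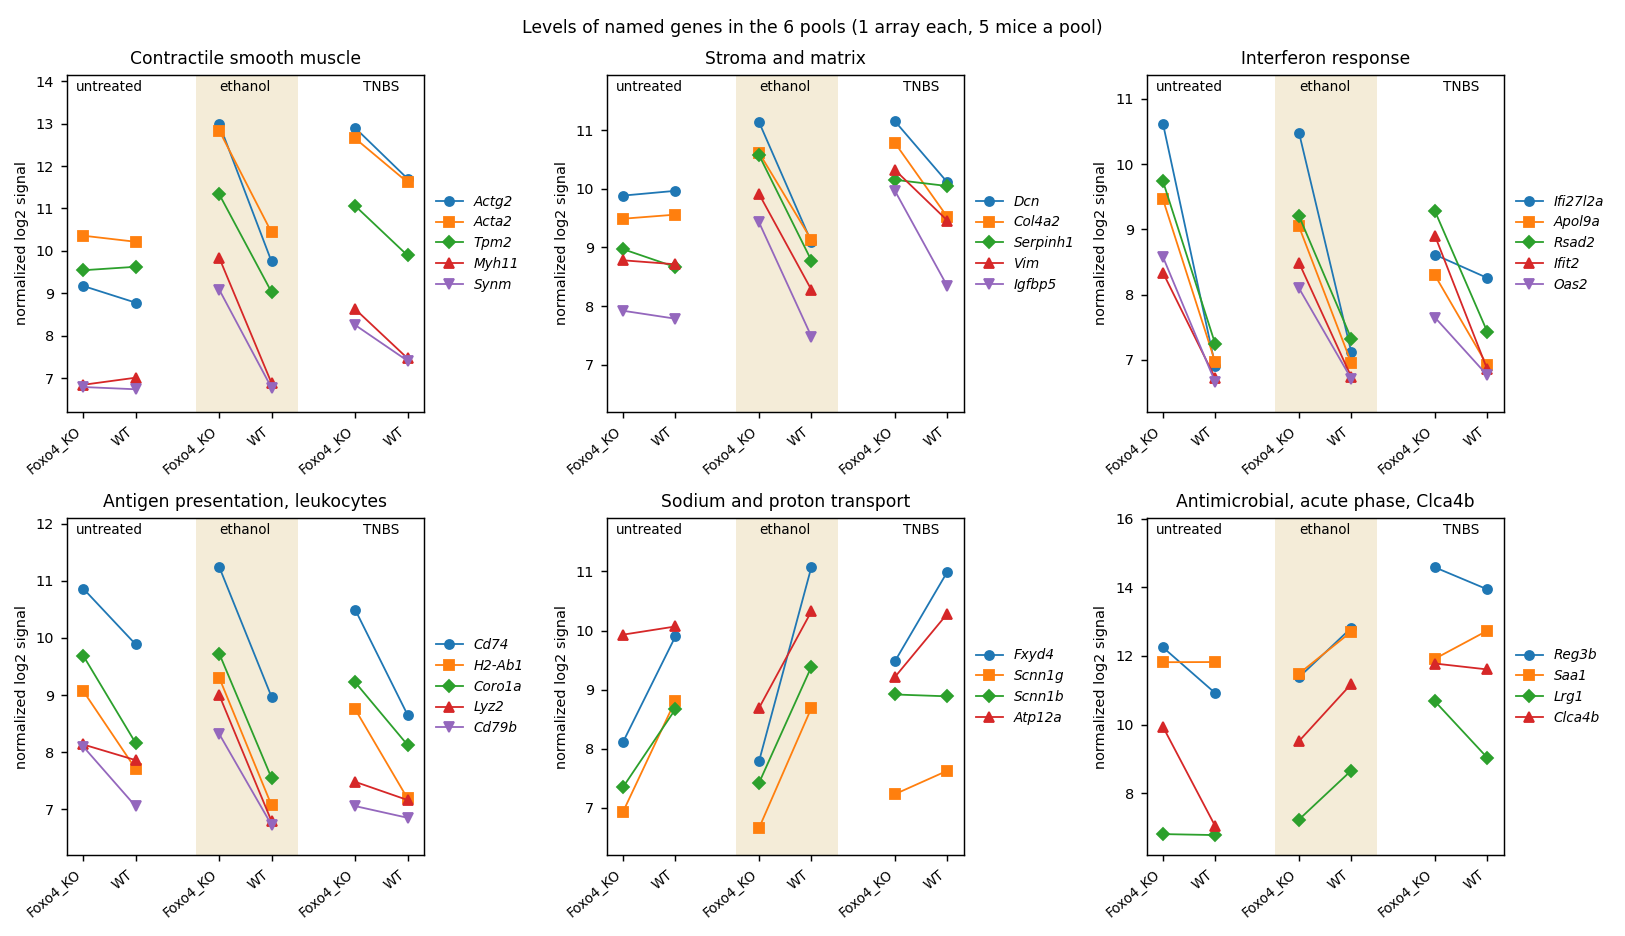
Normalized log2 signal (vertical axes) of 28 named genes in the 6 pools, 1 array each, with Foxo4_KO left of WT within untreated, ethanol (shaded) and TNBS pools and a line joining the pools of a pair. The interferon genes differ in the untreated as in the ethanol pair, and the smooth muscle genes are close to level in the untreated pair and apart in the ethanol pair. The sodium and proton transport genes run the other way, with WT above Foxo4_KO in the ethanol pair.

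The interferon-inducible GTPases, a family that acts in defence against intracellular pathogens, gave 5 detected genes of 12 on the array. Irgm2 had 9.94 in the Foxo4_KO ethanol pool and 8.57 in the WT ethanol pool (1.37), and Igtp 8.93 in Foxo4_KO and 7.57 in WT (1.36). Gbp3 (0.9996) and Irgm1 (0.99) were just under the threshold and Gbp7 was at 0.20. All 5 had every Foxo4_KO pool above every WT pool, as had 6.00% of all genes compared. Iigp1, Gbp4, Gbp5, Gbp6, Gbp9, Tgtp1 and Gvin1 were not detected in either ethanol pool. In the MHC class I list, with 18 detected of 21, the immunoproteasome subunits Psmb8 (11.82 in Foxo4_KO, 10.71 in WT, 1.11) and Psmb9 (1.06) passed 2-fold. The light chain B2m followed at 0.77 and the peptide transporter Tap2 at 0.56, and the list median was 0.21.

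MHC class II presentation showed 3 genes at least 2-fold higher and none lower among 9 detected of 13, against 1.20% higher of all genes compared. Cd74, the invariant chain, had 11.24 in the Foxo4_KO ethanol pool and 8.97 in the WT ethanol pool (2.27), H2-Ab1, the beta chain of the antigen-presenting molecule, 9.31 in Foxo4_KO and 7.07 in WT (2.23), and H2-DMb1, which helps load peptide, 8.35 in Foxo4_KO and 7.05 in WT (1.30). For these 3 genes the Foxo4_KO ethanol pool was the highest of the 6 pools. That order was shared by 12.8% of all genes compared and by 55 of the 96 higher genes. Every Foxo4_KO pool was also above every WT pool, as for 6.00% of all genes compared and 40 of the 96. Choosing genes by their difference in the ethanol pair alone makes both orders likelier. A second H2-Ab1 probe differed by 2.18 and a second, dim Cd74 probe by 0.66. The master regulator Ciita was higher by 0.33 and the lysosomal reductase Ifi30 was at −0.10. H2-Aa, H2-Eb1, H2-Ea and H2-Eb2 were not detected in either pool.

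Leukocyte markers were uneven. In the monocyte and macrophage list, 3 of 17 detected genes were at least 2-fold higher, against 1.20% of all genes compared. Lysozyme 2, Lyz2, had raw signals of 612.9 in the Foxo4_KO ethanol pool and 124.0 in the WT ethanol pool (difference 2.21). The actin regulator of leukocytes Coro1a was at 9.73 in Foxo4_KO and 7.55 in WT (2.18), and the lysosomal membrane protein Laptm5 at 10.69 in Foxo4_KO and 8.73 in WT (1.96). Complement genes of tissue macrophages were higher by less (C1qc 0.73, C1qa 0.63), and the endotoxin co-receptor Cd14 was at −0.65. Adgre1, Itgam, Fcer1g and Tyrobp were among 9 members not detected in either pool, and the median of those detected was 0.33. Lyz2 differed little in the untreated (0.27) and TNBS (0.32) pairs, whereas Coro1a differed by 1.52 and 1.09 there and Laptm5 by 1.07 and 1.04.

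Of B lineage genes, the antigen receptor subunit Cd79b had 8.32 in the Foxo4_KO ethanol pool and 6.73 in the WT ethanol pool (1.59), and the plasma cell chaperone Mzb1 8.35 in Foxo4_KO and 6.78 in WT (1.57). Pou2af1 (0.43) and Cd79a (0.40) followed, and Ms4a1, Pax5, Cd22 and Jchain were among 9 members not detected. The list median of 0.32 was −0.03 over the 5 genes detected in both pools, among them Pigr and Xbp1, which epithelium also expresses. T and NK cell markers were higher by less than 2-fold in all 9 detected cases, from 0.07 for Klrd1 to 0.55 for the T cell receptor component Cd3d, with a median of 0.23. Neutrophil genes were low or not detected: S100a8, a calprotectin subunit, was not above background in the Foxo4_KO ethanol pool (6.51) and was detected in the WT ethanol pool (7.34), a difference of −0.83, and S100a9, Mpo and Elane were not detected. Mast cell and eosinophil markers, 4 detected, ran from −0.14 to 0.02, and dendritic cell markers had a median of 0.12, with Irf8 highest at 0.61.

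Chemokine ligands had 3 of 19 detected genes at least 2-fold higher, against 1.20% of all genes compared. The lymphoid chemokine Ccl21b had 8.80 in the Foxo4_KO ethanol pool and 6.80 in the WT ethanol pool (1.99), its near-identical copy Ccl21a 8.07 in Foxo4_KO and 6.70 in WT (1.37), and the stromal chemokine Cxcl12 9.20 in Foxo4_KO and 7.84 in WT (1.36). The Ccl21 copies can share RNA on their probes and are uncertain as separate genes. Cxcl13, which attracts B cells, was higher by 0.86 and Cxcl9, induced by interferon gamma, by 0.66, while Cx3cl1 was at −0.30. Cytokines and their receptors had a median of 0.02 over 10 detected genes, with Il15 highest at 0.43, and Il6, Tnf, Ifng, Il10 and Il17a were not detected in either pool.

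Contractile smooth muscle genes held the largest group of differences after interferon. Of 34 list members on the array 24 were detected and 10 were at least 2-fold higher, against 1.20% of all genes compared. The median was 0.76, against −0.02 over all genes compared, and 0.29 over all 34 without a detection filter. Actg2, the gamma actin of enteric smooth muscle, had 12.99 in the Foxo4_KO ethanol pool and 9.75 in the WT ethanol pool (raw signals 7819.7 in Foxo4_KO and 916.0 in WT), a difference of 3.24. Myh11, smooth muscle myosin heavy chain, had 9.84 in Foxo4_KO and 6.88 in WT (2.96), and Acta2, alpha smooth muscle actin, 12.84 in Foxo4_KO and 10.44 in WT (2.40). Tropomyosin 2, Tpm2, had 11.33 in Foxo4_KO and 9.03 in WT (2.31) and the intermediate filament protein synemin, Synm, 9.08 in Foxo4_KO and 6.77 in WT (2.31). In all 5 genes the Foxo4_KO ethanol pool was the highest of the 6, as it was for 55 of the 96 higher genes. The WT ethanol pool was close to or below the untreated pools for all but Actg2, where it was above them.

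The untreated pair was nearly level for these genes. Actg2 had 9.17 in the untreated Foxo4_KO pool and 8.78 in the untreated WT pool, Myh11 6.84 in Foxo4_KO and 7.01 in WT, and Acta2 10.36 in Foxo4_KO and 10.21 in WT. In the TNBS pair the same genes were higher in Foxo4_KO by 1.20, 1.16 and 1.03, with the WT level of Actg2 at 11.70. Summed over the 24 detected members, linear normalized signal was 7737 in untreated Foxo4_KO and 7693 in untreated WT, 28630 in ethanol Foxo4_KO and 7863 in ethanol WT, and 24250 in TNBS Foxo4_KO and 13658 in TNBS WT. Such sums weigh most the members with the most signal, in ethanol Foxo4_KO Actg2 (12.99) and Acta2 (12.84). The median difference of the 24 in the ethanol pair was 0.76. The Foxo4_KO ethanol pool was the highest of the 6 for 15 of the 24, an order that 12.8% of all genes compared had. Every Foxo4_KO pool was above every WT pool for 1 of the 24, against 6.00% of all genes compared.

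Other contractile genes passing 2-fold were the actin crosslinker Flna (9.44 in the Foxo4_KO and 7.38 in the WT ethanol pool, 2.06), smoothelin Smtn (1.57), myosin light chain kinase Mylk (11.78 in Foxo4_KO, 10.32 in WT, 1.46), the small heat shock protein Hspb1 (1.34) and the cGMP kinase substrate Mrvi1 (1.01). Mylk is read by 2 further detected probes that differed by 2.25 and 1.92, against 1.46 for the brightest. Further probes of Acta2 (1.36 and 0.91), Synm (0.70) and Tpm2 (0.23) differed by less than the brightest. They were dim and not above background in the WT ethanol pool. Tagln, at 7.39 in Foxo4_KO and 6.54 in WT, was higher by 0.85 and Pdlim3 by 0.90. Cnn1, Lmod1, Synpo2, Cald1 and Kcnmb1 were among 10 members not detected in either pool. Of 22 genes of interstitial cells of Cajal and enteric neurons on the array, 16 were not detected in either pool, among them Uchl1, Vip, Nos1 and Sox10. Most of the 6 detected lay near background in both pools, as did the pacemaker channel Ano1 (6.90 in Foxo4_KO, 6.99 in WT, −0.09). The median of the 6 was −0.11, with Tac1, which is also in the enteroendocrine list, at −0.47.

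Genes in none of the lists, picked here by their known roles after their values were seen, include several of adhesion, muscle or vessel walls. The focal adhesion protein Tns1 had 9.13 in the Foxo4_KO ethanol pool and 6.96 in the WT ethanol pool (2.17). The integrin activator Fermt2 was higher by 1.78, the kinase Dmpk by 1.73, the pericyte regulator Rgs5 by 1.60, the phospholemman relative Fxyd6 by 1.37 and the adhesion adaptor Lims2 by 1.36. The chaperones Hspb8 (1.30) and Cryab (1.04), the vascular amine oxidase Aoc3 (1.29), the ubiquitin ligase subunit Asb2 (1.28) and the creatine kinase Ckb (1.08) were also higher.

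Of a skeletal muscle list, added after its values were seen and so only a description, 3 of 11 detected genes were at least 2-fold higher. The share over all genes compared was 1.20%, and the list median was 0.38. Acta1, skeletal alpha actin, had 8.67 in the Foxo4_KO ethanol pool and 6.77 in the WT ethanol pool (1.90), fast troponin I, Tnni2, 8.04 in Foxo4_KO and 6.94 in WT (1.10), and the calcium pump Atp2a1 7.63 in Foxo4_KO and 6.59 in WT. Atp2a1 was not above background in WT, a ratio of at least 2.05-fold. Of 20 members on the array, 11 were detected in the Foxo4_KO ethanol pool and 4 in the WT ethanol pool, 7 in the Foxo4_KO TNBS and 9 in the WT TNBS pool, and 3 in the untreated Foxo4_KO and 4 in the untreated WT pool. In the TNBS pair Acta1 had 6.68 in Foxo4_KO and 7.93 in WT, the opposite order.

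Stromal and matrix genes were higher in the Foxo4_KO ethanol pool. The WT ethanol pool was the lowest of the 6 for most genes of the fibroblast and stroma list and for fewer of the matrix list. Among 21 detected fibroblast and stroma genes 9 were at least 2-fold higher, against 1.20% of all genes compared. The list median was 0.62 (0.32 over all 30 on the array without a filter). The WT ethanol pool was the lowest of the 6 pools for 19 of the 21, against 959 of the 7998 genes compared. Decorin, Dcn, a collagen-binding proteoglycan, had 11.13 in the Foxo4_KO ethanol pool and 9.09 in the WT ethanol pool (2.04), beside 9.88 in untreated Foxo4_KO and 9.96 in untreated WT. The growth factor binding protein Igfbp5 had 9.43 in Foxo4_KO and 7.48 in WT (1.94), Igfbp7 10.26 in Foxo4_KO and 8.47 in WT (1.79), and vimentin, Vim, 9.91 in Foxo4_KO and 8.28 in WT (1.63). Col6a1 (1.45), the mineralisation inhibitor Mgp (1.44), the Notch-related ligand Dlk1 (1.41), Col5a1 (1.16) and the receptor Pdgfra (1.04) completed the 9. Dlk1 differed in the untreated (1.23) and TNBS (1.27) pairs as well. Dcn, Igfbp5 and Vim were between −0.08 and 0.14 in the untreated pair. In the TNBS pair they were higher in Foxo4_KO, by 1.04, 1.62 and 0.86. Col1a2, Lum, Sparc and Postn were among 9 list members not detected.

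In the list of basement membrane and matrix remodelling 6 of 21 detected genes were at least 2-fold higher, against 1.20% of all genes compared. The collagen chaperone Serpinh1 had 10.57 in the Foxo4_KO ethanol pool and 8.78 in the WT ethanol pool (1.79). The type IV collagen chains Col4a1 (9.19 in Foxo4_KO, 7.65 in WT, 1.55) and Col4a2 (10.61 in Foxo4_KO, 9.13 in WT, 1.48) were apart by similar amounts. The gelatinase Mmp2 (1.33), its regulator Timp2 (1.18) and Col18a1 (1.05) followed, and the list median was 0.51. The WT ethanol pool was the lowest of the 6 pools for 7 of these 21, against 959 of the 7998 genes compared. Endothelial genes were higher by less, with none of 17 at 2-fold, a median of 0.27 and Esam and Ramp2 highest at 0.72. Other stromal or secreted genes at least 2-fold higher were the protease inhibitor Serpina3n (1.66), the galectin Lgals1 (1.57), the proteoglycan Prelp (1.53), the phagocytic bridge Mfge8 (1.46), Igfbp4 (1.38), the kinase receptor Axl (1.28), the lipid phosphatase Plpp3 (1.21), the complement inhibitor Serping1 (1.20), the syndecan Sdc3 (1.11), Dkk3 (1.08) and the matrix protein Spon2 (1.04).

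Haemoglobin transcripts, a measure of blood in the tissue, were higher in the Foxo4_KO ethanol pool. Hba-a1 had 10.74 in Foxo4_KO and 9.16 in WT (1.58), Hbb-bs 10.98 in Foxo4_KO and 9.44 in WT (1.54) and Hbb-bt 10.96 in Foxo4_KO and 9.51 in WT (1.45). The WT ethanol pool was the lowest of the 6 pools for 959 of the 7998 genes compared. It was the lowest for all 5 detected members of the haemoglobin list, including Hbb-b2 (0.25) and Alas2 (0.11). Their summed linear signal was 5913 in untreated Foxo4_KO and 11227 in untreated WT, 5944 in ethanol Foxo4_KO and 2188 in ethanol WT, and 15235 in TNBS Foxo4_KO and 7394 in TNBS WT. Hbb-bs and Hbb-bt are near-identical, and their probes may read both. The part of blood, muscle or stroma content in the other differences of the ethanol pair was not tested.

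**Figure D3:**
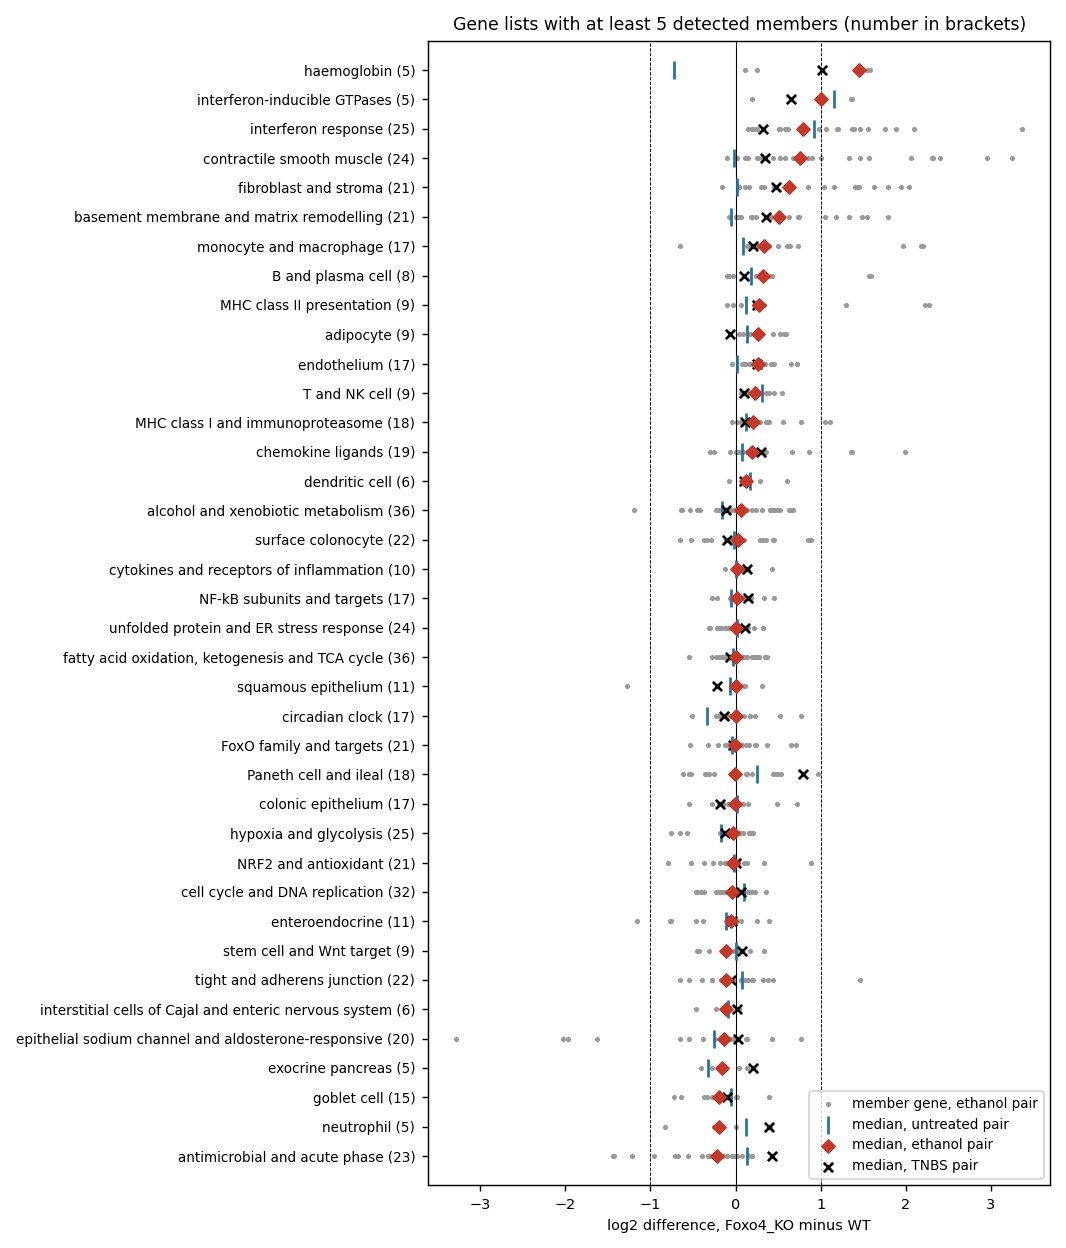
Log2 difference, Foxo4_KO minus WT (horizontal axis), of the detected members of each gene list in the ethanol pair (grey points), with the list's median in the ethanol (diamonds), untreated (bars) and TNBS (crosses) pairs, and dashed lines at 2-fold. Lists run from haemoglobin (median 1.45) at the top to antimicrobial and acute phase genes (−0.21) at the bottom, most epithelial and metabolic lists have medians near 0, and the smooth muscle and stromal lists have medians near 0 in the untreated pair.

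Genes of the epithelial sodium channel and aldosterone list were the largest group that was lower. Fxyd4, a regulatory subunit of the sodium pump that aldosterone induces, had 7.79 in the Foxo4_KO ethanol pool and 11.07 in the WT ethanol pool (raw signals 323.2 in Foxo4_KO and 2123.2 in WT), a difference of −3.28 and the lowest of the 7998. Scnn1g, the gamma subunit of the epithelial sodium channel, had 6.66 in Foxo4_KO and 8.69 in WT (−2.03), and Scnn1b, the beta subunit, 7.43 in Foxo4_KO and 9.39 in WT (−1.96). The alpha subunit Scnn1a differed by −0.39, so the subunits were not lower to the same degree. Atp12a, the colonic proton and potassium pump, had 8.69 in Foxo4_KO and 10.32 in WT (−1.63).

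These 4 were the only list members at least 2-fold apart among 20 detected of 22, where 0.338% of all genes compared were at least 2-fold lower. In the untreated pair Fxyd4 was at 8.12 in Foxo4_KO and 9.90 in WT, Scnn1g at 6.94 in Foxo4_KO and 8.81 in WT, and Scnn1b at 7.35 in Foxo4_KO and 8.67 in WT. These 3 were thus lower in Foxo4_KO without an enema too, whereas Atp12a was nearly level there (9.93 in Foxo4_KO, 10.07 in WT). In the TNBS pair Fxyd4 (−1.51) and Atp12a (−1.07) were at least 2-fold lower, Scnn1g was at −0.40 and Scnn1b at 0.03. Other genes of the aldosterone response were mixed, with Hsd11b2, the enzyme that shields the receptor from cortisol-like steroids, at −0.66, the kinase Sgk1 at −0.54 and the deubiquitinase Usp2 at 0.77, and the list median was −0.14. A second Fxyd4 probe differed by −1.20.

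Antimicrobial and acute phase genes had 3 of 23 detected genes at least 2-fold lower, against 0.338% of all genes compared, and none higher. The list median was −0.21. Reg3b, a lectin that kills bacteria, had 11.38 in the Foxo4_KO ethanol pool and 12.82 in the WT ethanol pool (−1.44). Lrg1, an acute phase glycoprotein, had 7.24 in Foxo4_KO and 8.67 in WT (−1.43), and serum amyloid Saa1 11.49 in Foxo4_KO and 12.71 in WT (−1.22). Saa2 (−0.96), the cytokine signalling inhibitor Socs3 (−0.72) and the protease inhibitor Slpi (−0.67) were lower by less than 2-fold. The order of genotypes in the other pairs differed by gene. Saa1 was 11.82 in both untreated pools, and after TNBS 11.92 in Foxo4_KO and 12.74 in WT, the order of the ethanol pair. Reg3b was 12.25 in Foxo4_KO and 10.92 in WT without treatment and 14.58 in Foxo4_KO and 13.94 in WT after TNBS. Lrg1 was 6.82 in Foxo4_KO and 6.79 in WT without treatment and 10.68 in Foxo4_KO and 9.04 in WT after TNBS. Nos2, Reg2, Orm1 and Steap4 were among 10 members not detected.

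Clca4b, of a family of chloride channel regulators, had 9.52 in the Foxo4_KO ethanol pool and 11.19 in the WT ethanol pool (−1.67), against 9.94 in Foxo4_KO and 7.04 in WT in the untreated pair. Its WT level differed widely between untreated and ethanol pools and its Foxo4_KO level little. The hormone Insl5 of distal enteroendocrine cells had 8.97 in Foxo4_KO and 10.13 in WT (−1.15), and the hormones of the same cells Gcg (−0.77) and Pyy (−0.76) were lower by less, while Chga was at 0.01 and the list median was −0.05. Casp14, a protease of terminal epithelial differentiation, had 7.53 in Foxo4_KO and 8.80 in WT (−1.27) and was lower by 1.72 and 1.16 in the untreated and TNBS pairs. Hoxb13, a homeobox gene of the most distal gut, had 10.35 in Foxo4_KO and 11.43 in WT (−1.08). Of 12 posterior Hox genes on the array, a list added after the value of Hoxb13 was seen, 4 were detected in the Foxo4_KO ethanol pool and 6 in the WT ethanol pool, and no other differed by 2-fold.

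Markers of the epithelium itself were close to level. The colonic epithelium list had a median of −0.01 over 17 genes, with Gpa33 at 0.72 and Cldn7 at −0.55. Its summed linear signal was 71910 in the Foxo4_KO ethanol pool and 74071 in the WT ethanol pool. Krt20, Cdh17 and Fabp2 were not detected in either pool. Surface colonocyte genes had a median of 0.03 over 22, with the transporters Slc20a1 and Slc37a2 at 0.88 and the water channel Aqp8 at 0.85. Goblet cell genes had a median of −0.20 over 15, with Spink1 at −0.72 and the repair peptide Tff3 at −0.37, and none at 2-fold. Paneth cell and ileal genes had a median of −0.01 over 18, with Defa3 at 0.97 and Rbp2 at −0.62. Junction genes had a median of −0.11 over 22, in which the pore-forming claudin Cldn2 was at −0.65. Stem cell and Wnt target genes had a median of −0.11 over 9, with Sox9 at −0.45.

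Genes that handle alcohol and foreign compounds differed little as a group. Of 36 detected of 55 on the array 1 was at least 2-fold lower, against 0.338% of all genes compared. It was the cytochrome Cyp2d10 (8.28 in the Foxo4_KO ethanol pool, 9.47 in the WT ethanol pool, −1.19), and the list median was 0.06. Cyp2d9, a close relative whose probe may read the same RNA, was at −1.19 as well. The formaldehyde-oxidising alcohol dehydrogenase Adh5 was higher by 0.67 and the carboxylesterase Ces2e by 0.65, while the retinaldehyde dehydrogenase Aldh1a3 was at −0.64. Cyp2e1, which oxidises ethanol, and Adh4 and Adh7 were not detected in either pool. Antioxidant genes had a median of −0.03 over 21, with the glutathione peroxidases Gpx3 at 0.89 and Gpx2 at −0.80. The medians were 0.00 over 17 circadian clock genes (Usp2 0.77, Dbp 0.52, Clock −0.51), −0.03 over 25 genes of hypoxia and glycolysis (Egln3 −0.76), 0.01 over 36 genes of fatty acid oxidation and the TCA cycle (Ppargc1a −0.54), −0.04 over 32 cell cycle genes (Cenpa −0.47) and 0.01 over 24 genes of the unfolded protein response (Ddit3 0.33).

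FoxO family members and their known targets showed no gene at 2-fold. Foxo1 had 7.26 in the Foxo4_KO ethanol pool and 7.14 in the WT ethanol pool (0.12), and Foxo3 had 6.98 in Foxo4_KO and 6.82 in WT (0.16). Among 21 detected genes of the list the median was −0.00, with Klf4 at 0.71, the metabolic kinase Pdk4 at 0.65 and the translation inhibitor Eif4ebp1 at −0.54. Cdkn1b, Bcl2l11, Cat and Insr were among 15 members not detected in either pool. NF-kB subunits and targets, which drive inflammatory transcription, had a median of 0.02 over 17. The adhesion molecules Vcam1 and Icam1 were at 0.45 and 0.33, Nfkbiz at −0.27 and the feedback enzyme Tnfaip3 at −0.22. Rel and Ptgs2 were not detected.

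Several genes outside all lists were at least 2-fold higher. Nenf, a secreted haem-binding protein with neurotrophic activity, had 10.58 in the Foxo4_KO ethanol pool and 7.68 in the WT ethanol pool (2.90), beside 10.58 in Foxo4_KO and 8.01 in WT without treatment and 9.94 in Foxo4_KO and 7.98 in WT after TNBS. Its 3 Foxo4_KO pools lay together and apart from the 3 WT pools. Ly6g6c (10.64 in Foxo4_KO, 9.19 in WT, 1.45), a surface protein of the Ly6 family, had the opposite order after TNBS, with 8.11 in Foxo4_KO and 9.68 in WT. Immune or interferon-related genes among the rest were Lgals9, a galectin (1.34), Ifitm1 (1.32), Helz2 (1.10), the selectin ligand Selplg (1.10), the IgM receptor Fcmr (at least 2.14-fold, not above background in WT) and the CD47 receptor Sirpa (1.08). The others were Manbal (1.49), the membrane protein Emp3 (1.44), Basp1 (1.33), the carboxypeptidase Cpn1 (1.15), Prap1 (1.15), the membrane linker moesin, Msn (1.13), the germ cell gene Tex19.1 (1.08), the organic anion carrier Slco2b1 (1.01) and 1 gene model without a gene name.

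Among lower genes outside the lists the largest difference was that of Fbxw5, a subunit of a ubiquitin ligase, which was not above background in the Foxo4_KO ethanol pool (6.59) and stood at 9.21 in the WT ethanol pool, a ratio of at least 6.17-fold. It was not detected in the untreated pools (6.54 in Foxo4_KO, 6.59 in WT) and was 8.98 in Foxo4_KO and 9.44 in WT after TNBS, so 3 pools were low and 3 high without following genotype. Arl2bp, which binds a small GTPase of the ARF family (−1.39), the epithelial integrin activator Fermt1 (−1.26), the fucosyltransferase Fut4 (−1.23), the peptide endothelin 2, Edn2 (−1.18), the glycogen phosphorylase Pygb (−1.14) and the arginine methyltransferase Prmt1 (−1.12) were also at least 2-fold lower, as were Clca4b, Cyp2d9 and Hoxb13 above. A second Fermt1 probe, close to background, differed by 0.04. The complement inhibitor Cd55 (−1.08), the kinases Pim3 (−1.05) and Prkg2 (−1.05), Rgs16 (−1.04), the calpain Capn13 (−1.02), the vesicle tether Uso1 (−1.01) and 1 gene model without a gene name complete the 27.

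Set beside the other pairs, which share no array with the ethanol pair, 22 of the 96 higher genes were also at least 2-fold higher in the untreated pair and 37 in the TNBS pair, and 11 in all 3. Over all genes compared, 0.495% were at least 2-fold higher in the untreated pair and 1.23% in the TNBS pair. The 11 were Nenf, H2-Ab1, Coro1a, Apol9a, Laptm5, Rsad2, Ifit2, Dlk1, Irgm2, Lgals9 and Basp1. In the untreated pair the 96 were higher in 70 cases with a median of 0.23, where 43.0% of all genes compared were higher, and in the TNBS pair in 85 cases with a median of 0.81, where 51.3% were. Of the 27 lower genes 4 were at least 2-fold lower in the untreated pair, 9 in the TNBS pair and 2, Fxyd4 and Casp14, in both. Over all genes compared, 0.211% were at least 2-fold lower in the untreated pair and 0.567% in the TNBS pair. Another 48 higher and 16 lower genes were not 2-fold apart in the same direction in either other pair. These include the genes flagged below that were 2-fold apart the opposite way in another pair.

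By list, beside the shares of all genes given above, 8 of the 11 higher interferon genes were also 2-fold higher in the untreated pair and 4 in the TNBS pair. Of the 10 higher smooth muscle genes 0 were in the untreated pair and 6 in the TNBS pair, and of the 9 higher stromal genes 1 was in the untreated pair and 5 in the TNBS pair. Of the 4 lower genes of the sodium channel and aldosterone list 3 were 2-fold lower in the untreated pair and 2 in the TNBS pair. Over all 6 pools, every Foxo4_KO pool was above every WT pool for 40 of the 96 higher genes (6.00% of all genes had that order), and every Foxo4_KO pool was below for 13 of the 27 lower genes (8.00%). Both sets were chosen by their order in the ethanol pair, which alone makes these orders likelier: of the 3550 genes higher by any amount in that pair 480 had the first order, and of the 4437 lower 640 had the second.

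The differences most above those of the untreated pair, in log2 units between the pairs and among genes detected in both, were those of Myh11 (3.12), Hba-a1 (3.00), Actg2 (2.85), Tpm2 (2.39), Hbb-bt (2.27), Synm, Acta2 and Hbb-bs (each 2.26), Tns1 (2.21) and Flna (2.19). Below the untreated pair by most were Clca4b (−4.56), Reg3b (−2.77), the oxidase maturation factor Duoxa2 (−2.51) and the apolipoprotein Apoa1 (−1.71). Duoxa2 had 8.21 in the Foxo4_KO and 8.51 in the WT ethanol pool, against 9.91 in Foxo4_KO and 7.70 in WT without treatment. Fxyd4, Atp12a, Lrg1, Defa31, Capn13 and Arl2bp followed, between −1.50 and −1.45. With 1 array a pool these differences between pairs were not tested.

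Against the TNBS pair, among genes detected in both pairs and leaving out 1 gene model without a gene name, the largest upward gaps were those of Acta1 (3.16), Ly6g6c (3.02), Ifi27l2a (3.01), Aqp8 (2.49), Slc20a1 (2.36), Cpn1 (2.12), Actg2 (2.05), the mitochondrial carrier Mtch2 (2.01), the peroxisomal oxidase Hao2 (1.98) and the desaturase Scd1 (1.90). Aqp8 had 12.63 in the Foxo4_KO and 11.78 in the WT ethanol pool, against 9.98 in Foxo4_KO and 11.62 in WT after TNBS. The largest downward gaps were those of S100a8 (−4.44), Il1b (−3.50), the chemokine Ccl4 (−3.28), Lrg1 (−3.07), Lcn2 (−2.47), Defa31 (−2.45), Lyz1 (−2.36), Amy2a5 (−2.31), Defa24 (−2.25) and Fbxw5 (−2.16). Il1b, a cytokine of inflammation, was near background in both ethanol pools (6.59 in Foxo4_KO, 6.72 in WT) and stood at 10.36 in Foxo4_KO and 6.99 in WT after TNBS. The gaps draw on all 4 pools, in proportions that differ by gene: Actg2 was close in Foxo4_KO after ethanol and after TNBS (12.99 and 12.90), and its WT levels were 9.75 after ethanol and 11.70 after TNBS.

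Other probes of the same genes were read for 35 of the 123 genes. Of their 49 other detected probes 48 lay on the same side of 0 and 21 were at least 2-fold apart the same way. Among those that did not reach 2-fold was a dim second Coro1a probe at 7.10 in the Foxo4_KO and 6.63 in the WT ethanol pool. At the threshold, the higher genes just inside were Spon2 (1.04), Slco2b1 (1.01) and Mrvi1 (1.01), and those just outside Gbp3 (0.9996), the guanylate cyclase subunit Gucy1a1 (0.99) and Irgm1 (0.99). Among lower genes Rgs16 (−1.04), Capn13 (−1.02) and Uso1 (−1.01) were inside and Gpr137b-ps (−0.97), Saa2 (−0.96) and B3gnt7 (−0.94) outside.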

How the data were processed

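RNA pooled from 5 mice was hybridised to 1 Illumina bead array per pool. The authors deposited an unnormalized intensity table with a column for each array that its header calls a detection p-value. These values increase with signal (Spearman correlations of 0.997 to 0.998), so they were read as 1 minus p and are called detection scores. The authors also deposited their normalized values, which are linear intensities that the values show to be quantile-normalized without background subtraction. The unnormalized table does not carry the probe IDs of the normalized table, so probes were joined by their signal profile over the 6 arrays, joining 46596 of 46628 targets. Of 8603 joins that could be checked by Entrez number 7962 carried the same number (92.5%), against 1 after shuffling. Names came from the platform annotation, with 29956 probes of 1 symbol, 10 of several and 16662 of none, and only the first were named. The deposited intensities were background-corrected against the detection p-values and quantile-normalized with neqc in limma 3.58.1 (R 4.3.3, offset 16), which gives the log2 signals used here, in place of the authors' normalized values. The brightest probe, by its mean over the 6 arrays, stood for a gene. Levels of different genes' probes were not compared. No test, standard error or p-value was computed, since each pool is 1 array, which limits the precision of every difference. Genes were named when at least 2-fold apart, when they belonged to a gene list, or when they were among the largest differences between pairs. The comparison and the 39 gene lists were chosen with earlier results of these data known. Alternatives changed the normalization, offset, detection filter, probe choice and fold. Promoters were taken from RefSeq on GRCm38.p6 by symbol, 74 of 96 higher and 23 of 27 lower genes matching. Probe sequences were not used here, so cross-hybridisation between similar genes was not tested. Calculations used Python 3.11.15, pandas 2.3.3 and numpy 2.4.6, and the join and the normalization were tested on simulated data.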

Additional observations from a re-analysis of the deposited data

Results flagged for a closer look

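For 6 genes at least 2-fold apart in the ethanol pair another pair was at least 2-fold apart the opposite way, and with 1 array a pool these differences between pairs were not tested. Acta1 differed, Foxo4_KO minus WT, by 1.90 in the ethanol pair and by −1.26 in the TNBS pair. Hba-a1 differed by 1.58 in the ethanol pair and by −1.42 in the untreated pair. Ly6g6c differed by 1.45 in the ethanol pair and by −1.57 in the TNBS pair. Clca4b differed by −1.67 in the ethanol pair and by 2.89 in the untreated pair. Reg3b differed by −1.44 in the ethanol pair and by 1.33 in the untreated pair. Lrg1 differed by −1.43 in the ethanol pair and by 1.64 in the TNBS pair.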

How the results depend on the processing

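The counts of genes at least 2-fold apart in the ethanol pair, 96 higher and 27 lower in Foxo4_KO, came to 160 higher with the authors' normalized values and to 160 higher with no background correction. A threshold of 1.5-fold gave 212 higher and 102 lower, and 3-fold gave 30 higher and 6 lower. The other normalization, offset and probe settings gave 80 to 88 higher and 21 to 25 lower genes. Requiring detection on both arrays gave 92 higher and 26 lower, and no detection filter 96 and 27. In every normalization, offset and probe setting all members kept their sign, and at least 80 of the 96 and 14 of the 27 were still at least 2-fold apart. The filter settings change which genes enter and not their signals, so they cannot check the members. Over all these settings, filters included, the median of the interferon list ran from 0.52 to 1.20. That of the smooth muscle list ran from 0.29 to 1.21 and that of the stromal list from 0.32 to 1.10. The B and plasma cell median was −0.03 over genes detected in both pools and 1.17 with the authors' values. The neutrophil list had no gene detected in both pools. The median of the T and NK cell list ran from 0.05 to 0.74 and that of the monocyte and macrophage list from 0.16 to 0.80. No paired analysis was possible because the ethanol comparison holds 1 Foxo4_KO and 1 WT pool, and no replicate could be left out; a fit of genotype over the 3 treatments as pairs, which asks another question, was not run. For the 692 genes detected in the Foxo4_KO pool alone and the 169 detected in the WT pool alone, the dimmer side is only a bound.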

Other observations

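Of 2935 detected probes with no single gene symbol, 57 were at least 2-fold higher in the Foxo4_KO ethanol pool than in the WT ethanol pool (1.94%) and 3 at least 2-fold lower (0.102%). Adipocyte genes, which mark mesenteric or submucosal fat, had a median of 0.27 over 9 detected genes, with the regulator Pparg at 0.60 and the carbonic anhydrase Car3 at 0.57, and Plin1, Fabp4, Lep, Cidec and Retn were not detected in either pool. Squamous epithelium genes had a median of 0.01 over 11 and exocrine pancreas genes a median of −0.16 over 5.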
